A study of Rattus norvegicus with 8 samples.

Results

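Potassium channels, voltage-gated calcium channels, TRP cation channels and the intracellular calcium release channels were examined in the outflow veins of rat arteriovenous fistulas (AVFs). The members were taken by gene name, from a set of families picked with earlier results of these data known. They comprised every gene of the Kcn families, the Cacna, Cacnb and Cacng families and the Trpc, Trpm and Trpv families, together with Abcc8, Abcc9, Itpr1 to Itpr3 and Ryr1 to Ryr3. This gave 147 of the 32623 genes in the count files, and 90 of the 147 had at least 80 reads over the 8 libraries and were tested. 2 of the 147 (Trpc4ap and Trpc5os) carry a TRP name without encoding a channel subunit.

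Sprague Dawley rats of both sexes received a femoral-epigastric AVF, in which the end of the epigastric vein is joined to the side of the femoral artery. A biodegradable nanofiber scaffold was wrapped around the vein near the anastomosis at the time of surgery. The scaffold either released β-aminopropionitrile (BAPN), an inhibitor of lysyl oxidases, the enzymes that crosslink collagen and elastin, or was an unloaded vehicle scaffold. Every rat therefore had both the fistula and a scaffold, and neither an unoperated vein nor a fistula without a scaffold was analysed here. Veins were taken at day 21 for bulk RNA sequencing from 4 rats with BAPN scaffolds (3 females and 1 male) and 4 rats with vehicle scaffolds (2 females and 2 males). No engineered allele is named for any rat, and their age is not given in the sources used here.

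The electrical state of vascular smooth muscle sets the tone of the vessel wall. Potassium channels let potassium leave the cell and hold the membrane negative, which keeps voltage-gated calcium channels shut. When the membrane depolarizes, L-type and T-type calcium channels admit calcium. Several TRP channels admit calcium or sodium, and the inositol trisphosphate and ryanodine receptors release calcium from internal stores. Related channels serve other cells of the wall. Immune cells and fibroblasts use calcium-activated potassium channels and TRP channels, and endothelial cells signal through them to the muscle.

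In BAPN-treated veins 11 of the 90 tested channel genes were lower than in vehicle veins and 0 were higher, with edgeR's quasi-likelihood test and a false discovery rate (FDR) below 0.05 over all 14930 genes tested. Described here are 10 of the 11, namely the ATP-sensitive potassium channel genes Kcnj8 and Abcc9, the inward rectifier Kcnj12, the tandem-pore channel Kcnk3, the voltage-gated potassium channels Kcnh2 and Kcnd1, the auxiliary subunits Kcne2 and Kcne4, and the calcium channels Cacna1c and Cacna1h. Among all tested genes 12.1% passed the same threshold, 5.57% higher and 6.56% lower, so that the 12.2% of channel genes called was close to the background in either direction together. Their split by direction was 0 higher and 12.2% lower. A log2 fold change below 0 was found for 68 of the 90 channel genes (75.6%), against 48.5% of all tested genes. The median log2 fold change of the channel genes was -0.52 (quartiles -1.10 and -0.02), and that of all tested genes was 0.02.

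Counting rats instead of fitting a model, 12 channel genes had all 4 BAPN values below all 4 vehicle values. Only 1 (Kcnh4, with few vehicle reads) had all of them above. These 13 were 14.4% of the tested channel genes, against 21.8% of all tested genes (10.3% lower and 11.4% higher). With both directions together and all 8 rats, the share of channel genes that separated was thus not above the background. By direction, 12 of 90 were lower, against 10.3% of all genes, and 1 of 90 was higher, against 11.4%. The share in both directions together was above the background without BAPN 2 (28.9% against 26.6%) and without Vehicle 2 (33.3% against 32%). The number of channel genes called depended on the rats included. It was 8 without BAPN 1 (8.89%, against 7.91% of all genes tested), 10 without BAPN 2 (11.1% against 6.93%), 4 without BAPN 3 (4.44% against 3.13%), 4 without Vehicle 1 (4.44% against 2.22%), 5 without BAPN 4 (5.56% against 4.45%), 6 without Vehicle 3 (6.67% against 6.81%) and 7 without Vehicle 4 (7.78% against 5.94%), and it was 15 without Vehicle 2 (16.7% against 14.2%). With DESeq2 it was 20, of which 1 (Kcnk13) was higher, a share of 23.3% against 23.7% of all genes. With sex as a covariate 6 of the 11 kept their call (among them Abcc9, Kcnj8, Kcnk3, Kcnh2 and Cacna1h), and in the females alone 1 did (Cacna1h). All genes were called at 4.68% and 0.636% in these analyses. Levels below are given as CPM, the count of a gene scaled to a fixed library size, and are not corrected for gene length.

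**Figure D1:**
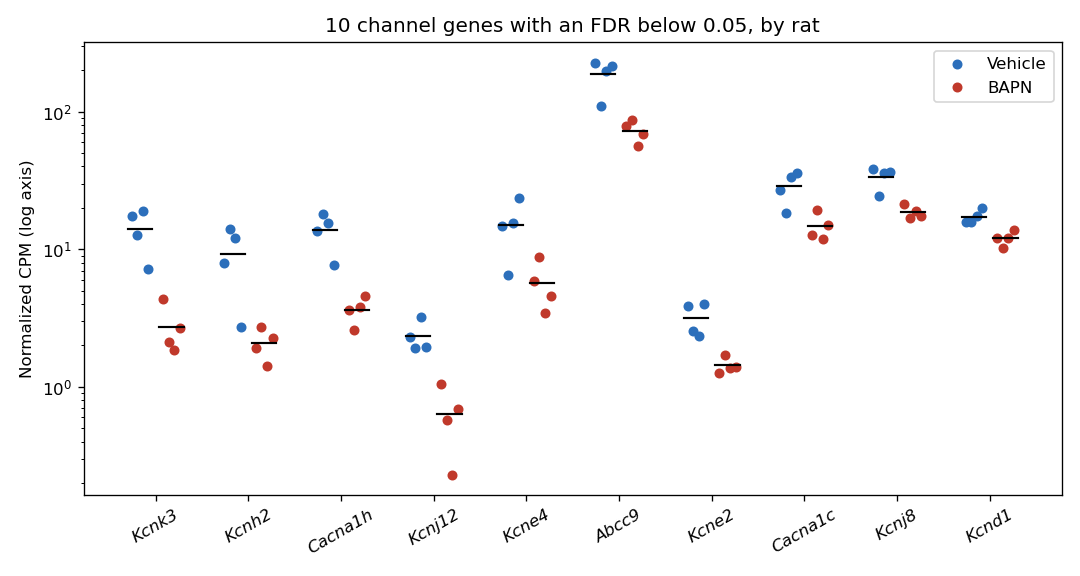
Normalized CPM (log axis) of 10 channel genes with an FDR below 0.05, with 1 point per rat (blue, vehicle; red, BAPN) and a black bar at each group mean, ordered by log2 fold change. The groups did not overlap for 8 of the 10 genes and overlapped for Kcne4 and Cacna1c.

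The libraries differed in depth by group. BAPN libraries held 45039451 to 52241007 counts and vehicle libraries 19548203 to 22442050, so that the smallest BAPN library was 2.01 times the largest vehicle library, and depth and treatment cannot be told apart. A floor of 3 reads corresponded to 0.059 to 0.069 CPM in BAPN and 0.125 to 0.148 CPM in vehicle libraries. The 90 tested channel genes together summed to 1177 to 1342 CPM in BAPN and 1381 to 1513 CPM in vehicle veins. The defining markers of the labeled tissue were detected, since all 17 smooth muscle contractile genes and all 11 endothelial markers present in the files passed the read minimum. The summed CPM of the contractile genes was 2608 to 6357 in BAPN and 5298 to 8928 in vehicle veins (overlapping, with BAPN 2 at 6357), and 10 of the 17 were lower and 0 higher. Endothelial markers summed to 568 to 779 CPM against 967 to 1742 (4 of 11 lower) and pericyte markers to 597 to 922 against 942 to 2023 (2 of 8 lower). Macrophage markers summed to 29440 to 42440 CPM in BAPN and 6646 to 23960 in vehicle veins, without overlap and with 0 of 11 called. Fibroblast markers summed to 14120 to 22050 against 19650 to 47420 CPM (overlapping, 2 of 10 lower). Adipocyte markers summed to 1335 to 3119 CPM in BAPN and 633 to 2015 CPM in vehicle veins (overlapping, 0 of 8 called). The range of these sums lay higher with BAPN, although the median log2 fold change of the adipocyte genes was -1.47. T cell markers had 2 of 9 higher and B and plasma cell markers 1 of 7 higher (medians 1.03 and 2.56), with overlapping sums. Of the skeletal muscle, nerve, mast cell and epithelial markers 0 were called. In bulk tissue, fewer cells of a type and less RNA per cell cannot be told apart, and the part of these shifts in the channel results was not tested.

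By role, the calls fell in 5 of the 9 groups of channel subunits. The inward rectifiers with their sulfonylurea receptors had 3 of 6 tested genes lower (median log2 fold change -1.02), the voltage-gated calcium channel pores 2 of 7 (median -0.80), the voltage-gated potassium channel pores 3 of 22 (median -0.55), the potassium channel auxiliary subunits 2 of 11 (median -0.49) and the tandem-pore potassium channels 1 of 8 (median 0.37). No gene was called among the 6 calcium- or sodium-activated potassium channels, the 9 calcium channel auxiliary subunits, the 14 TRP channels or the 6 release channels. A log2 fold change below 0 was found for 2 of the 8 tandem-pore genes (1 of 8 without Vehicle 4, and 4 of 8 without Vehicle 2), and for all 7 calcium channel pores and all 6 release channels. Among all tested genes 6.56% were called lower. These counts describe small groups, in which 1 gene moves the share by several percent, and no test between groups was made.

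**Figure D2:**
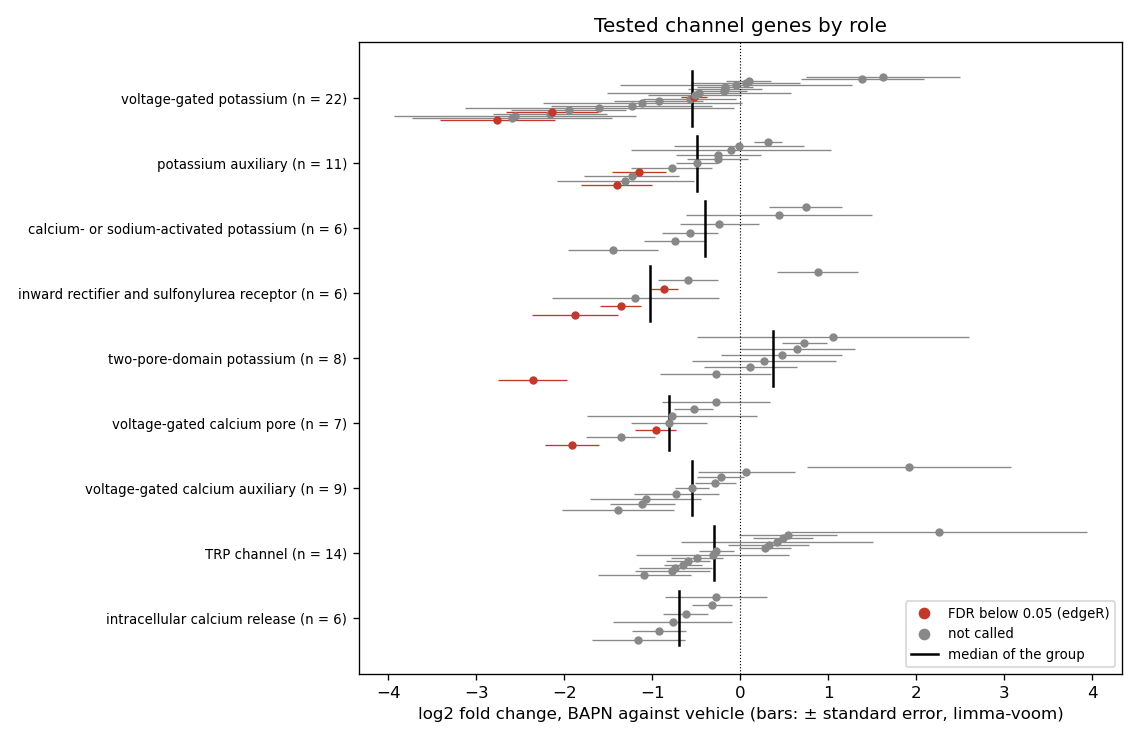
The log2 fold change (BAPN against vehicle, horizontal axis) of the tested channel genes by role, with bars of 1 standard error from limma-voom, genes below the FDR threshold in red and a black bar at the median of each group. The red points lie left of 0 in 5 groups, and the tandem-pore group is the 1 group whose median lies right of 0.

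The ATP-sensitive potassium channel of vascular smooth muscle and pericytes pairs a pore, encoded by Kcnj8, with the sulfonylurea receptor encoded by Abcc9. It opens when ATP falls and relaxes the vessel. Both genes fell in BAPN-treated veins. Abcc9 (ENSRNOG00000036960) was at 79.1, 87.2, 55.9 and 69.2 CPM in BAPN rats 1 to 4 and at 225, 109, 198 and 213 CPM in vehicle rats 1 to 4. The highest BAPN rat thus lay below the lowest vehicle rat, Vehicle 2, which was nearer to the BAPN rats than to the other vehicle rats. The means were 72.8 ± 13.5 and 186 ± 52.7 CPM (SD, n = 4 each), a 2.56-fold difference (log2 fold change -1.36, standard error 0.23, edgeR FDR 0.0131).

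Kcnj8 (ENSRNOG00000013463) was at 21.2, 17, 18.8 and 17.3 CPM under BAPN scaffolds and at 38.2, 24.5, 35.7 and 36.3 CPM under vehicle scaffolds. The groups did not overlap, and Vehicle 2 was again the lowest vehicle rat. The log2 fold change was -0.86 (standard error 0.16, edgeR FDR 0.0164), and the FDR was 0.0561 when Vehicle 1 was left out. Abcc9 kept its call when any of the 8 rats was left out (FDR 0.00506 to 0.0432). Kcnj8 and Abcc9 are neighbors in the RefSeq gene order on chromosome 4. The pancreatic and neuronal counterparts of the same channel, Kcnj11 and Abcc8, had 25 reads each over the 8 libraries and were not tested.

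Because these neighboring genes encode the subunits of the same channel and fell together, the 250 bases before each annotated start are shown. They are from RefSeq (GRCr8), are printed 5′ to 3′ on the strand of the gene, and carry in capitals the match to the GC box GGGCGG on either strand, which reads CCGCCC where it lies on the opposite strand.
Abcc9, chr4:177386349-177386598, minus strand: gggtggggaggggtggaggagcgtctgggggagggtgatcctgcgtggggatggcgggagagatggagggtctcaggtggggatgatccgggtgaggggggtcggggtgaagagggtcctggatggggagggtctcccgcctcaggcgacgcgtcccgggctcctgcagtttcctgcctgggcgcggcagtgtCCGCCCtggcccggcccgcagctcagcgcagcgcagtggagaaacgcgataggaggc
Kcnj8, chr4:177246549-177246798, minus strand: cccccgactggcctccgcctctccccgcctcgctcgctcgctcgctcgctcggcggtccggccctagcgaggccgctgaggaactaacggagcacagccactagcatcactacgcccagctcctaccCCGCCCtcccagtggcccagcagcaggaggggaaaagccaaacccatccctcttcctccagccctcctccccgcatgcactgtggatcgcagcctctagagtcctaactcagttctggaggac

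Each promoter held the GC box once in this stretch, with its first printed base at -57 of the start for Abcc9 and at -123 for Kcnj8. Both stretches were rich in G and C, at 71.2% and 66.8%. A window of 300 bases around the start (250 before and 50 after) was available for 66 of the 90 tested channel genes. The GC box was present on either strand in 60.6% of these 66 windows, against 34.9% of all 27457 windows in the RefSeq table. The median GC content was 63.2% against 52.0%. The motif TATAAA was present in 1.52% of the 66 windows and in 14.3% of all windows. Over all 106 channel genes with a window, tested or not, the shares were 50.9% for the GC box and 4.72% for TATAAA. The 66 genes had passed the read minimum and the 27457 windows were not filtered by reads. These contrasts are therefore not a trait of channel genes alone. The CArG box, the element bound by serum response factor at contractile genes, was present in 0 of the 66 windows and in 1.64% of all windows. The TEAD motif GGAATG was present in 9.09% against 13.9%, and the E-box CACGTG in 9.09% against 6.65%. Such a match is a description of letters and was not related to binding.

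The other inward rectifiers set the resting membrane potential. Kcnj12 was at 1.06, 0.571, 0.23 and 0.696 CPM under BAPN scaffolds and at 2.31, 1.92, 3.24 and 1.94 CPM under vehicle scaffolds, without overlap, and fell by 1.88 on the log2 scale (standard error 0.49, edgeR FDR 0.0415). Its call held in 2 of the 8 analyses that left out a rat (without BAPN 1 or without Vehicle 2), and its FDR ranged from 0.0453 to 0.0915 over these. Kcnj2, a classical inward rectifier of the vessel wall, had means of 5.35 and 8.04 CPM (log2 fold change -0.59, FDR 0.263) and Kcnj14 had means of 2.78 and 1.51 CPM (log2 fold change 0.88, FDR 0.221). Kcnj15 was at means of 1.71 and 3.90 CPM and was not called (FDR 0.370).

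Tandem-pore channels carry the background potassium leak. Kcnk3, an acid- and oxygen-sensitive leak channel of vascular smooth muscle, was at 4.33, 2.11, 1.86 and 2.68 CPM under BAPN scaffolds and at 17.5, 12.6, 19.1 and 7.18 CPM under vehicle scaffolds. All BAPN rats were below the lowest vehicle rat, Vehicle 4. The 5.13-fold difference in means was among the largest of the called genes (log2 fold change -2.36, standard error 0.39, edgeR FDR 0.0105), and the call held without any 1 of the 8 rats (log2 fold change -2.67 to -2.18). Kcnk13, a leak channel known from microglia and other macrophages, was at 17.5, 12.3, 19.1 and 15.3 CPM under BAPN scaffolds and at 8.52, 13, 11.4 and 5.81 CPM under vehicle scaffolds. Its groups overlapped through Vehicle 2 alone, and it was not called with edgeR (log2 fold change 0.73, FDR 0.0847) but was with DESeq2 (adjusted p = 0.0412). Of the other 6 tandem-pore genes tested, none passed, with log2 fold changes from -0.28 (Kcnk2) to 1.06 (Kcnk4). The value of Kcnk2, a stretch- and lipid-sensitive leak channel, rested on Vehicle 4. That rat was at 22.5 CPM, the other vehicle rats were at 1.12 to 3.15 CPM, and the BAPN rats were at 5.23 to 6.73 CPM. Without Vehicle 4 the direction turned and the gene was called higher (log2 fold change 1.51, edgeR FDR 0.0468).

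Among voltage-gated potassium channels, the KCNQ family opens near the resting potential and restrains vessel tone. Its member Kcnq5 lay at 4.58 to 7.73 CPM under BAPN scaffolds and 4.24 to 7.61 CPM under vehicle scaffolds, with overlapping groups (log2 fold change 0.10, FDR 0.812). Its direction turned when BAPN 3 (-0.03) or Vehicle 3 (-0.02) was left out.

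Kcnh2 encodes the rapid delayed rectifier best known from the heart. Its levels were 1.93, 2.73, 1.43 and 2.26 CPM under BAPN scaffolds and 7.92, 14.0, 12.1 and 2.74 CPM under vehicle scaffolds. The highest BAPN rat and the lowest vehicle rat, Vehicle 4, were nearly equal, and the other vehicle rats were well above (log2 fold change -2.14, standard error 0.53, edgeR FDR 0.0228). The call held in 4 of the 8 analyses without a rat (FDR 0.0077 to 0.0642), being lost without BAPN 3, BAPN 4, Vehicle 1 or Vehicle 3.

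Kcnd1, a pore of the rapidly inactivating current, differed by a small amount with little scatter. It was at 12.0, 10.2, 12.1 and 13.7 CPM under BAPN scaffolds and at 15.7, 15.9, 17.5 and 19.9 CPM under vehicle scaffolds, without overlap (log2 fold change -0.52, standard error 0.15, edgeR FDR 0.0492). The FDR lay just inside the threshold, and leaving out any rat took it outside (0.0515 to 0.118).

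The auxiliary subunits Kcne2 and Kcne4 are small membrane proteins that modify the gating of KCNQ, KCNH and other potassium channel pores. Kcne2 was at 1.26, 1.69, 1.38 and 1.39 CPM under BAPN scaffolds and at 3.84, 2.56, 2.33 and 4.02 CPM under vehicle scaffolds, without overlap, and its log2 fold change was -1.15 (standard error 0.31, edgeR FDR 0.0456). Kcne4, which inhibits several voltage-gated pores and assembles with the vascular KCNQ channels, was at 5.89, 8.79, 3.43 and 4.58 CPM under BAPN scaffolds and at 14.8, 6.45, 15.5 and 23.4 CPM under vehicle scaffolds. Here the groups overlapped, because BAPN 2 was above Vehicle 2 (log2 fold change -1.40, standard error 0.40, edgeR FDR 0.0476). Both calls held in 2 of the 8 analyses without a rat. That of Kcne2 held without Vehicle 2 or Vehicle 3 (FDR up to 0.122 otherwise) and that of Kcne4 without BAPN 2 or Vehicle 2 (FDR up to 0.118 otherwise).

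The stretch before the annotated start of Kcne4 held a GC box at -224 and the palindromic E-box CACGTG at -90, both in capitals, and is shown as 1 of the 4 available among the 11 called genes.
Kcne4, chr9:87695798-87696047, plus strand: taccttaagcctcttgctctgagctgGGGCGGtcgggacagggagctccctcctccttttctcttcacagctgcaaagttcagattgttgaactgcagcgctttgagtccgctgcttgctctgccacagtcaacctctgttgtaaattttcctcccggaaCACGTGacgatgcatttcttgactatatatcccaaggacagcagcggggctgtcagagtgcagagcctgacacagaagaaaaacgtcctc

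Several potassium channel genes with an established place in vessel tone did not pass the edgeR test. Kcna5, an oxygen-sensitive delayed rectifier, had means of 0.444 and 1.72 CPM (log2 fold change -1.95, FDR 0.0728, DESeq2 adjusted p = 0.0145), and its groups overlapped through BAPN 1 and Vehicle 1.

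Kcnma1, the pore of the large-conductance calcium-activated channel, was at 3.98, 5.39, 3.61 and 1.60 CPM under BAPN scaffolds and at 4.44, 5.17, 13.5 and 16.7 CPM under vehicle scaffolds (log2 fold change -1.45, FDR 0.0801, DESeq2 adjusted p = 0.0192). Vehicle 1 and 2, both females, were at the level of the BAPN rats, and Vehicle 3 and 4, both males, were well above. The 1 male with a BAPN scaffold, BAPN 4, was the lowest of the 8 rats (1.60 CPM). In the females alone the log2 fold change of Kcnma1 was -0.15. Its partner in muscle, Kcnmb1, was at 8.23, 25.4, 6.51 and 7.28 CPM under BAPN scaffolds and at 12.9, 12.9, 21.0 and 34.5 CPM under vehicle scaffolds (log2 fold change -0.78, FDR 0.299). BAPN 2 stood far above the other BAPN rats for Kcnmb1, and without it the log2 fold change was -1.48 (edgeR FDR 0.0458). In females alone the value was 0.05. Kcnmb1 and Kcnip1 are neighbors on opposite strands of chromosome 10, and the strand setting of the counting is not given in the sources used here.

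Kcnn4, the intermediate-conductance calcium-activated channel of immune cells, activated fibroblasts and endothelium, was at 190, 194, 278 and 311 CPM under BAPN scaffolds and at 153, 238, 136 and 54.1 CPM under vehicle scaffolds (log2 fold change 0.74, FDR 0.203). Vehicle 2 lay above BAPN 1 and BAPN 2. Kcnv2, a silent subunit that forms channels only with other pores, had BAPN values of 0 (BAPN 3, below the floor of 0.069 CPM) to 0.531 CPM and vehicle values of 0.640 to 3.43 CPM, without overlap (log2 fold change -2.59, FDR 0.0989, DESeq2 adjusted p = 0.0207). Kcnh4, a brain-type relative of Kcnh2, was the 1 gene with all BAPN values above all vehicle values (0.787 to 1.15 against 0 to 0.499 CPM, FDR 0.191). Kcnv1 (means 11.2 and 10.7 CPM, log2 fold change 0.06, or -0.03 when scaled by total counts alone) and Kcnab2 (24.7 and 19.9 CPM, log2 fold change 0.32) were not called.

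Voltage-gated calcium channels supply the calcium for contraction. Cacna1c, the pore of the L-type channel that carries most of this current in vascular muscle, was at 12.6, 19.3, 11.8 and 15 CPM under BAPN scaffolds and at 26.9, 18.3, 33.6 and 35.6 CPM under vehicle scaffolds. BAPN 2 and Vehicle 2 overlapped, and the other rats separated (log2 fold change -0.96, standard error 0.23, edgeR FDR 0.0312). The call held without BAPN 2 or without Vehicle 2 and was lost without any of the other 6 rats (FDR up to 0.084). The T-type pore Cacna1h, which opens near the resting potential, was at 3.63, 2.60, 3.82 and 4.54 CPM under BAPN scaffolds and at 13.5, 17.9, 15.6 and 7.70 CPM under vehicle scaffolds. All BAPN rats lay below Vehicle 4, the lowest vehicle rat, and the 3.75-fold difference in means had the lowest FDR of the channel genes (log2 fold change -1.91, standard error 0.30, edgeR FDR 0.00943). It held without any 1 rat (FDR 0.00629 to 0.0348).

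The other vascular T-type pore, Cacna1g, was at 6.10, 14.3, 6.67 and 7.61 CPM under BAPN scaffolds and at 34.8, 10.5, 16.5 and 27.3 CPM under vehicle scaffolds. It just missed the threshold (log2 fold change -1.36, FDR 0.0519, DESeq2 adjusted p = 0.00592), and it passed without BAPN 2 (FDR 0.0396) or Vehicle 2 (FDR 0.0245). The neuronal-type pores Cacna1a, Cacna1b, Cacna1d and Cacna1i had log2 fold changes from -0.80 to -0.27 and were not called. Cacna1s, the pore of skeletal muscle, had 43 reads in all and was not tested, and skeletal muscle markers summed to 28.6 to 41.6 CPM in BAPN and 33.5 to 93.9 CPM in vehicle veins, with Myot at 0 reads.

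The stretch before the annotated start of Cacna1c is shown with its match to the TEAD motif GGAATG, which reads CATTCC on the printed strand, at -109.
Cacna1c, chr4:154051749-154051998, minus strand: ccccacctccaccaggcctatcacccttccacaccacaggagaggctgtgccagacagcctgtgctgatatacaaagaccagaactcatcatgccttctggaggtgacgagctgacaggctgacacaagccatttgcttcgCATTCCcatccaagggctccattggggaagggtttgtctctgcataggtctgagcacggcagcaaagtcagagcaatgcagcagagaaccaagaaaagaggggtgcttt

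Unlike those of Abcc9, Kcnj8 and Kcne4, this stretch held no GC box, and its GC content was 54.4%. Windows for the other 7 called genes were not analysed here.

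Auxiliary subunits carry the calcium channel pore to the membrane and tune its gating. Cacna2d1, the main such subunit in vascular muscle, was at 17.6, 22.7, 6.69 and 12.0 CPM under BAPN scaffolds and at 39.95, 18.03, 31.4 and 37.8 CPM under vehicle scaffolds (log2 fold change -1.11, FDR 0.0730, DESeq2 adjusted p = 0.0177). Its groups overlapped through BAPN 2 and Vehicle 2, as for Cacna1c. Cacnb3 had means of 18.3 and 26.7 CPM (log2 fold change -0.54, FDR 0.105), and Cacnb2 of 1.18 and 2.49 CPM (log2 fold change -1.07, FDR 0.274). Of the 9 tested auxiliary subunits 7 had a log2 fold change below 0.

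The intracellular release channels all had negative log2 fold changes that missed the edgeR test, from -1.16 to -0.27. Itpr1, the main inositol trisphosphate receptor of smooth muscle, was at 62.5, 81.6, 33.9 and 54.9 CPM under BAPN scaffolds and at 115, 72.2, 87.4 and 167 CPM under vehicle scaffolds (log2 fold change -0.92, FDR 0.0732, DESeq2 adjusted p = 0.0193). BAPN 2 and Vehicle 2 again overlapped. Itpr3 was nearer between groups, with means of 38.4 and 47.8 CPM (log2 fold change -0.32, FDR 0.374). Ryr2, the ryanodine receptor best known from the heart, had means of 0.507 and 1.14 CPM over 198 reads in all (log2 fold change -1.16, FDR 0.165).

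TRP channels admit sodium and calcium in response to receptors, stretch, heat or stored calcium. Of 14 tested, 0 were called, and 8 had a log2 fold change below 0. Trpc1, which contributes to receptor- and store-operated entry, was at 3.30, 4.84, 5.01 and 3.67 CPM under BAPN scaffolds and at 7.27, 6.35, 6.24 and 6.47 CPM under vehicle scaffolds. It was the 1 TRP gene whose groups did not overlap, and it was called with DESeq2 (adjusted p = 0.0161) but not with edgeR (log2 fold change -0.65, FDR 0.0748). Trpc6, activated by diacylglycerol in myogenic tone, ranged from 5.25 to 20.8 CPM under BAPN scaffolds and from 11.5 to 30.5 CPM under vehicle scaffolds (log2 fold change -0.74, FDR 0.238). Trpm4, a calcium-activated cation channel that depolarizes muscle, had means of 12.3 and 18.5 CPM (log2 fold change -0.59, FDR 0.141).

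Trpv4, an endothelial and muscle channel that responds to flow and osmotic change, was at 12.4, 8.54, 9.62 and 5.25 CPM under BAPN scaffolds and at 13.7, 8.08, 13.9 and 14.6 CPM under vehicle scaffolds (log2 fold change -0.49, FDR 0.262). Vehicle 2 stood apart from the other vehicle rats, within the range of the BAPN rats. Trpm7, a channel joined to a kinase that handles magnesium, had means of 59.8 and 72.1 CPM (log2 fold change -0.27, FDR 0.363). Trpv2, a channel abundant in macrophages, was at 202, 174, 237 and 332 CPM under BAPN scaffolds and at 202, 236, 155 and 80.05 CPM under vehicle scaffolds (log2 fold change 0.49, FDR 0.315, and -0.10 in females alone). Vehicle 4 was the lowest rat for Trpv2, Kcnn4 and Kcnk13, and it also had the lowest sum of macrophage markers. Trpc4ap, which shares the TRP name only, had means of 138 and 143 CPM (log2 fold change -0.05, FDR 0.751).

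**Figure D3:**
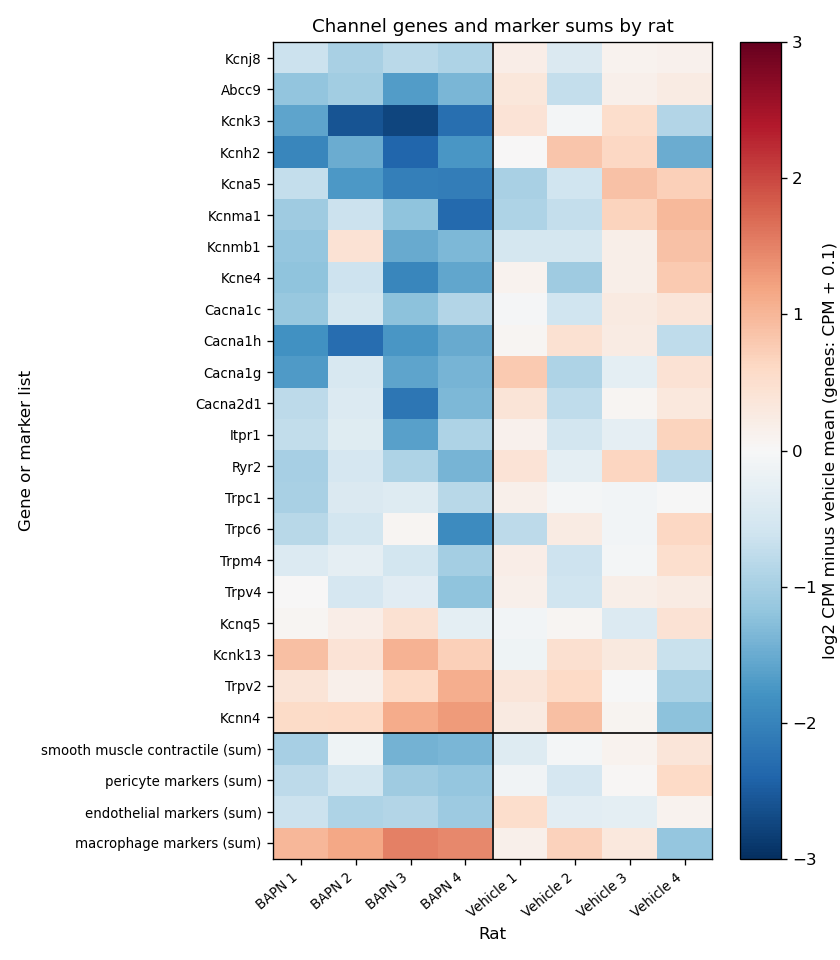
Heat map of 22 channel genes and the sums of 4 marker lists (rows) in the 8 rats (columns), as log2 CPM minus the mean of the vehicle rats (a pseudocount of 0.1 CPM was added for genes). BAPN 2 is the 1 BAPN column not blue for Kcnmb1 and the palest for Cacna1c and the contractile sum, and Kcnk13, Trpv2, Kcnn4 and the macrophage sum are red in all 4 BAPN columns.

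The vein of BAPN 2 had the highest contractile sum of its group (6357 CPM, against 2608 to 3485 CPM in the other 3), and it was also the highest BAPN rat for Abcc9, Kcne4, Kcnmb1, Cacna1c, Cacna1g, Cacna2d1 and Itpr1. It was the lowest BAPN rat for Kcnj8, Kcnd1 and Cacna1h. The level of each channel gene was therefore also set against the contractile genes, as CPM per 1000 CPM of the 17 contractile genes in the same library. On this scale the groups overlapped for all 11 called genes. Kcnj8 was at 2.67 to 7.21 with BAPN and 3.69 to 7.21 with vehicle, and Cacna1c at 3.03 to 5.57 and 2.75 to 5.07. The mean ratio of Kcnk3 was 0.820 with BAPN and 2.14 with vehicle, that of Kcnh2 0.591 and 1.38 and that of Cacna1h 1.15 and 2.05, with overlapping ranges. The means had the opposite order for Kcnd1 (3.69 with BAPN and 2.48 with vehicle), Kcnj8 (5.59 and 4.94) and Cacna1c (4.19 and 4.08).

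Over the 90 tested channel genes, 0 had all BAPN ratios below all vehicle ratios, 4 (Kcnj14, Cacng6, Kcnh4 and Kcnq5) had all of them above, and 86 overlapped. Of these 4, Cacng6 (vehicle reads 4, 7, 0 and 10) and Kcnh4 (9, 6, 12 and 0) passed the read minimum through the deeper BAPN libraries. Over all 14930 tested genes 44 were below, 3273 above and 11613 overlapped, so that on this scale separation downward was rare for any gene. The contractile genes were themselves lower in BAPN veins, and the ratio describes relative levels only.

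**Figure D4:**
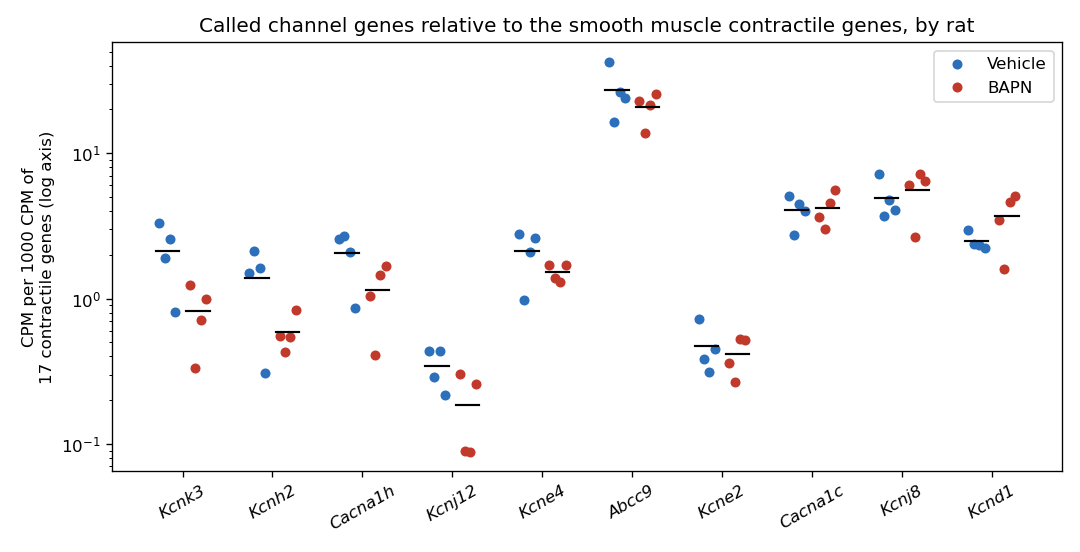
Called channel genes (10 shown) as CPM per 1000 CPM of the 17 smooth muscle contractile genes (log axis), with 1 point per rat (blue, vehicle; red, BAPN) and a black bar at each group mean. The groups overlap for every gene shown, with group means farthest apart for Kcnk3 and nearly equal for Cacna1c.

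Genes that work with these channels were taken from 5 lists of calcium handling, store-operated and mechanosensitive entry, other ion channels, channel anchoring and contraction. Of 126 listed genes 102 were tested, 19 were lower and 0 higher (18.6%), and the median log2 fold change was -0.51. Among all tested genes 12.1% were called and 6.56% were lower. More than any other list, contraction supplied these calls (10 of 17), among them the actin-associated Synpo2 (log2 fold change -2.20), calponin Cnn1 (-1.59) and the smooth muscle myosin heavy chain Myh11 (-1.58). In the list of channel partners and anchoring 4 of 20 were lower. These were Ank2 (-1.38), an ankyrin that anchors channels and exchangers, the caveolar coat proteins Cavin2 (-1.11) and Cavin1 (-1.01), and Akap12 (-1.10), a scaffold for protein kinase A. Of 29 calcium handling genes 3 were lower, namely Mrvi1 (-1.04), a partner of the inositol trisphosphate receptor, the calcium pump Atp2a3 (-1.03) and the junctional protein Jph2 (-0.96). Among store-operated and mechanosensitive channels 1 of 17 was lower, the store calcium sensor Stim1 (-0.50). Among chloride and other cation channels 1 of 19 was lower. The shares lower in these last 3 lists were 10.3%, 5.88% and 5.26%, near the background.

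The other 57 channel genes were not tested, and 17 of them had 0 reads. Their median was 6 reads over the 8 libraries. The members nearest below the minimum were Cacng7 (79 reads), Trpc4 (74) and Kcnc4 (58), and the nearest above it were Kcna7 (83), Kcng1 (97) and Kcnc2 (109). Of the tested channel genes, 6 had under 40 reads in the 4 vehicle libraries together and 0 had so few in the deeper BAPN libraries.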

How the data were processed

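Bulk RNA sequencing of stranded, ribosomal RNA-depleted libraries was analysed from 8 rat AVF outflow veins, 4 with BAPN and 4 with vehicle scaffolds. The deposited values are whole-number counts per gene and library, made by the authors without normalization. The submitters' processing notes name bcl2fastq 2.17, Trim Galore and STAR. The counter, its strand setting and the genome build are not given in the sources used here. The 8 files were joined by Ensembl gene identifier, and the gene symbols are those in the files.

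Genes with at least 80 reads in total were tested with edgeR 4.0.16 (TMM factors, quasi-likelihood F test, no covariate) in R 4.3.3, with Benjamini-Hochberg adjustment over all 14930 genes and a threshold of 0.05. CPM values use TMM library sizes. Standard errors are from limma 3.58.1 (voom), as the spread of the log2 fold change. DESeq2 1.42.0, other scaling factors and filters, sex as a covariate, females alone, equal library totals, the replicate block and the omission of each rat were alternatives. The fit was tested on simulated data before use. Replicate libraries differed by far more than sampling noise (chi-square per degree of freedom 57.11 to 259.7). The p-values set the difference between groups against the spread between rats. Rats of the same replicate number did not deviate together, and the labels do not say what the numbers mean.

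The channel genes, gene lists and marker lists were chosen with earlier results of these data known. Genes are named where the FDR was below 0.05, where the groups did not overlap, where they had the most reads of their role (2 per role), or where they belong to a list of vascular tone channels. A few others are named to give the range of a group or the reads of an untested relative, chosen after their values were seen. Promoter sequences are from RefSeq (GRCr8) and were found for 106 of the 147 channel genes, matched by symbol. Protein sequences were not analysed here, and some genes that enter the counts are not reported here by name.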

Additional observations from a re-analysis of the deposited data

Results flagged for a closer look

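3 of the 74 groups of 4 rats examined (37 named channel genes, 2 groups each) had a rat set apart from the other 3 by more than Dixon's 95% limit for 4 values. Chance sets apart about 1 in 20 such groups. For Kcnmb1 the rat BAPN 2 was at 25.4 CPM and the other BAPN rats at 6.51 to 8.23 CPM. For Trpm7 the rat Vehicle 4 was at 85.7 CPM and the other vehicle rats at 67 to 67.8 CPM. For Trpv4 the rat Vehicle 2 was at 8.08 CPM and the other vehicle rats at 13.7 to 14.6 CPM. None of these 3 genes was called between the groups.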

How the results depend on the processing

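The 11 lower and 0 higher channel genes, the 13 without overlap, the median of -0.525 and the 19 related genes were recomputed under 19 alternatives, except that the count without overlap has no value with DESeq2, sex as a covariate or the replicate block. With DESeq2 20 channel genes were called (19 lower, 1 higher) and 36 related genes. With sex as a covariate the calls were 6 channel genes, all lower, and 7 related genes. In females alone they were 1 channel gene, lower, and 1 related gene, with a median of -0.218 and 36 channel genes without overlap (40%, against 44.7% of all genes). All genes were called at 0.636% there. A base mean of at least 100 left 7 without overlap, of 41 tested (17.1%, against 24.7% of all genes). Without any filter the median was -0.396. Leaving out each rat gave 4 to 15 channel genes called, 4 to 14 lower and 0 to 1 higher, 14 to 30 without overlap (15.6% to 33.3%, against 24.1% to 32% of all genes), medians of -0.576 to -0.475 and 7 to 24 related genes. The calls of Abcc9, Kcnk3 and Cacna1h held in all 8 of these. The replicate block left 2 channel genes called (Kcnj8 and Kcnk3), both lower (2.22%, against 2.38% of all genes), and 6 related genes. Samples with the same number did not deviate together over all tested genes (correlations -0.135 to 0.146, with 2 of 8 samples closest to their own number). The labels do not say what the numbers mean, and this check cannot exclude a link between rats of the same number. Among the 37 channel genes named by rule, directions turned for 5, none of them called. Kcnk2, named after its values were seen, turned too and was at 1.511 without Vehicle 4 (called, edgeR FDR 0.0468), 0.467 with sex and 1.203 in females. Kcnv1 was at -0.034 with total counts only, -0.044 with sex, -0.194 in females, and from -0.313 (without Vehicle 4) to 0.452 when a rat was left out. Kcnq5 ranged from -0.027 (without BAPN 3) to 0.26 when a rat was left out. In females Trpc4ap was at 0.044, Kcnmb1 at 0.049 and Trpv2 at -0.1. The causes were not tested. At equal library totals 12 channel genes were called (14.3%, against 12.6% of all genes), 11 of them the same. Depth and treatment cannot be told apart. The vehicle libraries limit the precision of genes with few reads.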
